A study of Sus scrofa with 15 samples.

Results

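Soy formula was compared with cow's milk formula in the testis of neonatal piglets, gene by gene. The comparison took the 3 count columns labelled as soy (Soy) and the 3 labelled as plain milk (Milk), 6 of the 15 libraries in the deposited table, and every gene that passed a filter on low counts, 15634 of the 30476 genes listed. Male piglets suckled for the first days of life and received their diets from postnatal day 2 to day 21, when the testes were frozen and total RNA was taken for sequencing. The remaining groups were given sow milk (Sow), milk formula with genistein (M + G, 84 mg/L) and milk formula with 17β-estradiol (M + E2). Soy piglets were given a soy protein formula and Milk piglets a cow's milk formula, both commercial powders of different brands, so that protein source, isoflavones and the rest of the recipe cannot be told apart. Neither group received genistein or estradiol as an additive. All groups shared breed (Dutch Landrace Duroc), age and sex, and per the study's methods all piglets, Sow included, were housed singly and drank from bowls. The question behind the comparison is whether a soy diet acts on the developing testis as an estrogen would.

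The testis of a suckling male already makes steroids. Leydig cells, between the tubules, take cholesterol through a chain of enzymes to androgens under luteinizing hormone, and in the pig they also make much estrogen. Sertoli cells divide inside the tubules under follicle-stimulating hormone and surround the few germ cells. Isoflavones of soy such as genistein bind estrogen receptors, weakly per the paper.

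Reads on genes numbered 7385856 to 9017628 in the 6 libraries, and 6097552 to 9488579 in all 15 (median 8198038). Between these 6 libraries Pearson's r across genes on log2 CPM (counts of a gene per 1000000 counts of its library, scaled by edgeR's TMM method) was 0.939 to 0.976 within a diet and 0.945 to 0.989 between the diets. Each Soy library had its highest r with a Milk library: Soy 2 with Milk 3 (0.985), Soy 3 with Milk 3 (0.976) and Soy unnumbered, whose column carries no number, with Milk 1 (0.989). Genes are not independent replicates, and no p-value belongs to these correlations. No source gives more than 1 library for a piglet, and none states whether a library is 1 piglet or a pool. The p-values measure the spread between these libraries. STAR, CYP17A1 and CYP19A1, steroid genes of the boar testis, were abundant in all 6 libraries, with 1783 CPM of STAR in Milk 2 the lowest of these values.

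No gene was called different between Soy and Milk. With edgeR's quasi-likelihood test, 0 of 15634 genes (0%) passed the Benjamini-Hochberg adjusted threshold of 0.05 together with a change of at least 2-fold, and 0 passed it at any fold. An unadjusted p under 0.05 was found for 381 genes (2.44%), of which 213 were higher (1.36%) and 168 lower (1.07%) in Soy. The smallest adjusted p was 0.0980. DESeq2's Wald test on the same libraries called 6 genes (0.0384%), and edgeR's exact test on the 6 libraries alone called 5 of 14350 (0.0348%). The 3 genes that both of these called were identifiers of the mitochondrial genome, described next.

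The precision of the comparison was moderate. The 95% interval of a log2 fold change reached a median of 0.58 to either side (quartiles 0.42 and 0.82), and for 10759 genes (68.8%) it lay wholly within 2-fold on either side. The fitted difference was at least 2-fold up in 123 genes (0.787%) and at least 2-fold down in 107 (0.684%). Soy and Milk libraries did not overlap for 734 genes (4.69%), 395 of them higher (2.53%) and 339 lower (2.17%) in Soy. For 51 of the former and 40 of the latter the difference was also 2-fold or more. The median log2 fold change over all tested genes was 0.01.

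The gene with the smallest p was ENSSSCG00000018062, which the study's supplementary tables pair with MT-TV, the mitochondrial transfer RNA for valine. Its level was 12.2, 12.3 and 11.8 CPM in Soy 2, Soy 3 and Soy unnumbered, against 3.21, 0.744 and 1.13 CPM in Milk 1, Milk 2 and Milk 3. The 3 Soy libraries were nearly equal, and all 11 libraries of the other diets lay at or below 3.21 CPM. The log2 fold change was 2.87 ± 0.40 (SE), or 7.29-fold, with an adjusted p of 0.0980 by edgeR's quasi-likelihood test. Without Milk 1, the highest of the Milk libraries, it was 3.67 with an adjusted p of 0.00189, which met both thresholds. Of the 15 alternative settings that tested this gene, only 4 called it, that one included. Its log2 fold change ran from 2.49 to 3.67 over them. Against the other diets in the main fit, Soy was higher by 2.26 than M + G (adjusted p = 0.207), by 3.01 than M + E2 (adjusted p = 0.0299) and by 2.88 than Sow (adjusted p = 0.119). These levels rest on 86 to 108 reads per Soy library and 6 to 21 per Milk library.

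ENSSSCG00000018062 belongs to a run of 37 consecutive identifiers, 13 of which carry the symbols of the proteins encoded in mitochondrial DNA, the same number of genes and the same 13 symbols as RefSeq lists for the pig mitochondrion. The other 24 identifiers have no symbol in the table and are not named here from their order. Of these, 19 were tested: 15 were higher and 4 lower in Soy, 8 had an unadjusted p under 0.05, all higher (background 1.36%), 6 had no overlap, all higher (background 2.53%), and the median log2 fold change was 0.92. This group was formed after its values were seen. The group is mixed: ENSSSCG00000018063 had 12105, 8369 and 14660 CPM in Soy and 14880, 13221 and 7913 CPM in Milk (−0.04). The identifiers are neighbouring genes read without a known strand. Where they are short, reads of 36 bases cannot tell them from longer transcripts that run across them or from nuclear copies.

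ENSSSCG00000018071 was at 9.94, 9.61 and 17.6 CPM in the Soy libraries and 4.28, 3.47 and 1.75 CPM in the Milk libraries, with no overlap (log2 fold change 1.97 ± 0.35, adjusted p = 0.596, edgeR quasi-likelihood). ENSSSCG00000018064 was at 6.10, 4.63 and 6.97 CPM in Soy and 1.99, 0.372 and 0.501 CPM in Milk, again with no overlap (2.67 ± 0.52, adjusted p = 0.731). Unlike MT-TV, both stood in Sow where they stood in Soy. ENSSSCG00000018071 had 18.5 and 14.2 CPM in the Sow libraries and no more than 2.62 CPM in M + G and M + E2. For ENSSSCG00000018064 the Sow libraries had 5.30 and 3.27 CPM, and no library of M + G or M + E2 passed 1.57 CPM. The difference between Soy and M + E2 was called for ENSSSCG00000018071 (2.94, adjusted p = 0.0299) but not for ENSSSCG00000018064 (2.71, adjusted p = 0.0625).

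**Figure D1:**
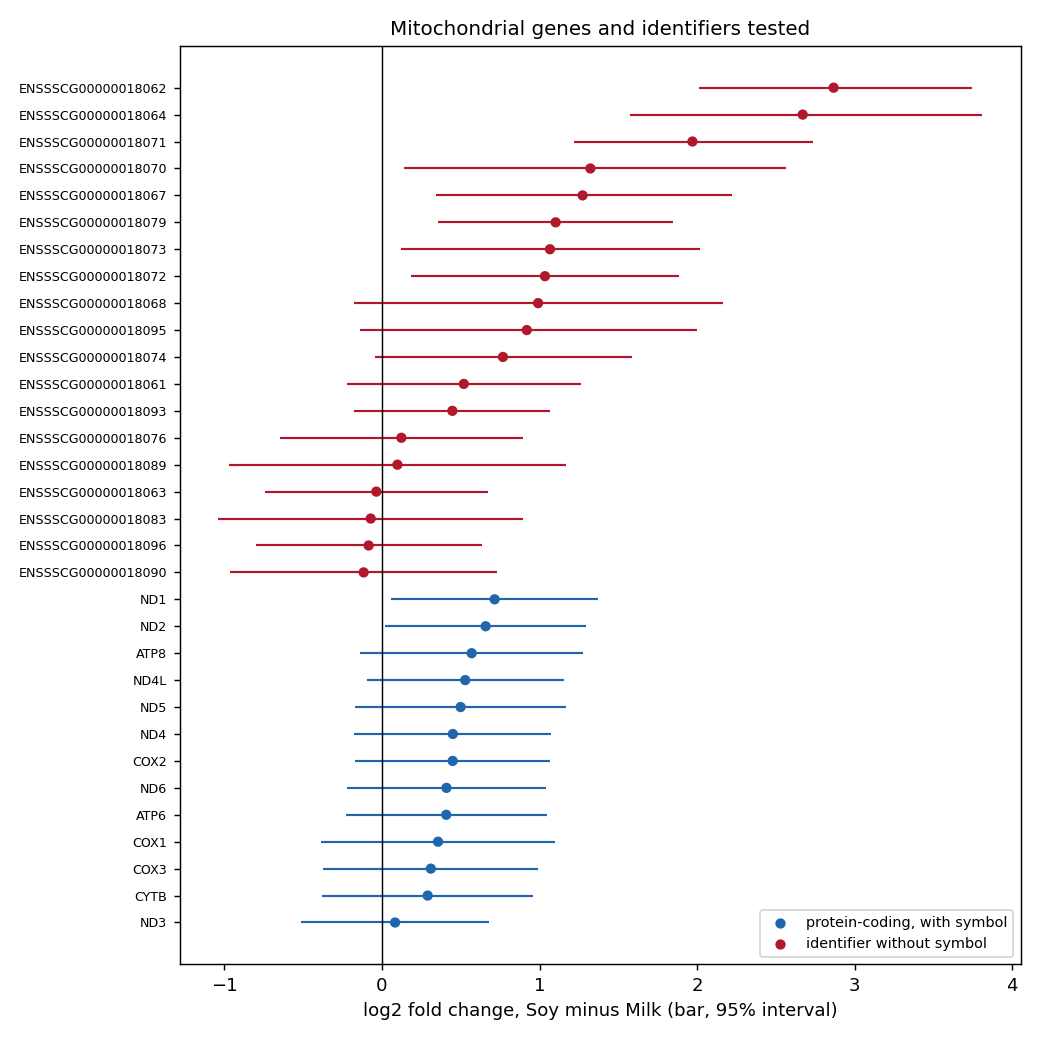
Log2 fold change between Soy and Milk (x axis, Soy minus Milk) for the 13 protein-coding genes of the mitochondrial genome (blue) and the 19 tested identifiers without a symbol (red), with 95% intervals as bars. The 3 identifiers at the top, led by ENSSSCG00000018062 at 2.87, stand apart from the protein-coding genes, which lie between 0.08 and 0.72.

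The 13 protein-coding genes, subunits of respiratory complexes, had fitted values above 0, and none was called. All 13 were higher in Soy, 2 had an unadjusted p under 0.05 (background 1.36%), every gene overlapped between the diets, and the median log2 fold change was 0.45. With 1 library left out it ran from 0.23 (without Milk 2) to 0.69 (without Milk 1). ND1 of complex I had 6735, 4360.4 and 5999.5 CPM in Soy and 4819, 2301 and 3295 CPM in Milk (0.72, 95% interval 0.06 to 1.37). The share of reads on the 13 genes was 6.72% to 9.65% in Soy and 4.49% to 7.74% in Milk. The 63 nuclear genes of oxidative phosphorylation had a median of −0.14, with 49 lower in Soy and none at an unadjusted p under 0.05. The 68 genes of the mitochondrial ribosome had a median of −0.14 also, with 61 lower. Both lists were highest in Soy unnumbered, Milk 1 and Milk 2, and without Soy 3 their medians were 0.074 and 0.029, against −0.48 and −0.39 without Soy unnumbered.

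Among genes with a symbol, the smallest p values for genes higher in Soy without overlap belonged to GBA3 and GLB1L2. GBA3, a cytosolic glucosidase that splits sugar conjugates of plant flavonoids, had 11.4, 6.29 and 12.4 CPM in Soy and 4.28, 1.49 and 1.25 CPM in Milk. The log2 fold change was 2.12 ± 0.44 with an adjusted p of 0.996 by the quasi-likelihood test, and DESeq2 called it (adjusted p = 0.0165). All Soy libraries lay above all Milk libraries, and the Sow libraries, at 6.90 and 4.84 CPM, lay above them too. In M + G, where genistein was added to the milk formula, GBA3 had 3.01, 1.71 and 2.70 CPM. Against M + E2 the difference of 3.07 was called (adjusted p = 0.0371), and against M + G it was 2.02 (adjusted p = 0.458).

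GLB1L2, a relative of beta-galactosidase, had 33.0, 18.9 and 20.8 CPM in Soy and 3.36, 5.83 and 9.65 CPM in Milk (log2 fold change 1.93 ± 0.52, adjusted p = 0.999). Milk had the lowest mean of the 5 diets, 6.28 CPM, but the lowest M + G library lay below Milk 3. M + G had 8.53 to 27.6 CPM, M + E2 16.0 to 31.6 CPM and Sow 15.7 to 48.9 CPM. Neither M + G nor M + E2 was called different from Milk. GUSB, the lysosomal beta-glucuronidase, had 666, 659 and 237 CPM in Soy and 319, 231 and 255 CPM in Milk (0.96, 95% interval 0.25 to 1.66). Soy 2 and Soy 3 were high and Soy unnumbered lay within the Milk range, so the diets overlapped. These 3 glycosidases were put side by side after their values were seen.

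SLC30A8, a zinc transporter of secretory granules, had 29.2, 35.0 and 31.8 CPM in Soy and 20.9, 20.8 and 15.7 CPM in Milk, with no overlap and a log2 fold change of 0.74 ± 0.20. Its difference from M + E2, 1.35, was called (adjusted p = 0.0371, quasi-likelihood). FNIP2, a partner of folliculin, had 221, 181 and 224 CPM in Soy and 113, 153 and 111 CPM in Milk (0.73). IL12RB2, a chain of the interleukin-12 receptor, had 2.82, 3.32 and 3.42 CPM against 1.22, 1.12 and 1.63 CPM (1.25). PLEKHA5 differed by 0.48 and OAZ3, an antizyme of polyamine metabolism known from late germ cells, by 1.15, both without overlap. M + E2 differed from Milk by 0.65 for PLEKHA5 and by −0.28 for OAZ3, neither called.

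COMP, a cartilage matrix protein, was decided by 1 library. It had 19.5 CPM in Soy 3, 0.677 and 0.137 CPM in the other Soy libraries, and 0, 0.124 and 0 CPM in Milk, where no library held more than 3 reads. Against a floor of 3 reads per library the Soy mean was at least 16.8-fold higher, and Soy 3 alone carried it.

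Lower in Soy without overlap were, among others, NEFL, UBALD2, CACNA1I, TMEM40, SLC46A2, UBE2C and CA11. NEFL, the light chain of neurofilaments, had 0.565, 0.356 and 0.410 CPM in Soy and 3.21, 7.07 and 1.13 CPM in Milk (log2 fold change −3.05 ± 0.66, adjusted p = 0.999; DESeq2 adjusted p = 0.0297). UBALD2 had 24.2, 24.6 and 28.3 CPM in Soy and 43.2, 39.4 and 38.5 CPM in Milk (−0.65), and Soy was the group that stood below all others.

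CACNA1I, a calcium channel, differed by −1.66 and TMEM40, a membrane protein, by −1.71. SLC46A2, a solute carrier, differed by −0.78. UBE2C, a ubiquitin enzyme of mitotic exit, had 23.9, 23.6 and 25.1 CPM in Soy and 35.0, 48.2 and 31.7 CPM in Milk (−0.66). CA11, a carbonic anhydrase relative, differed by −0.60.

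**Figure D2:**
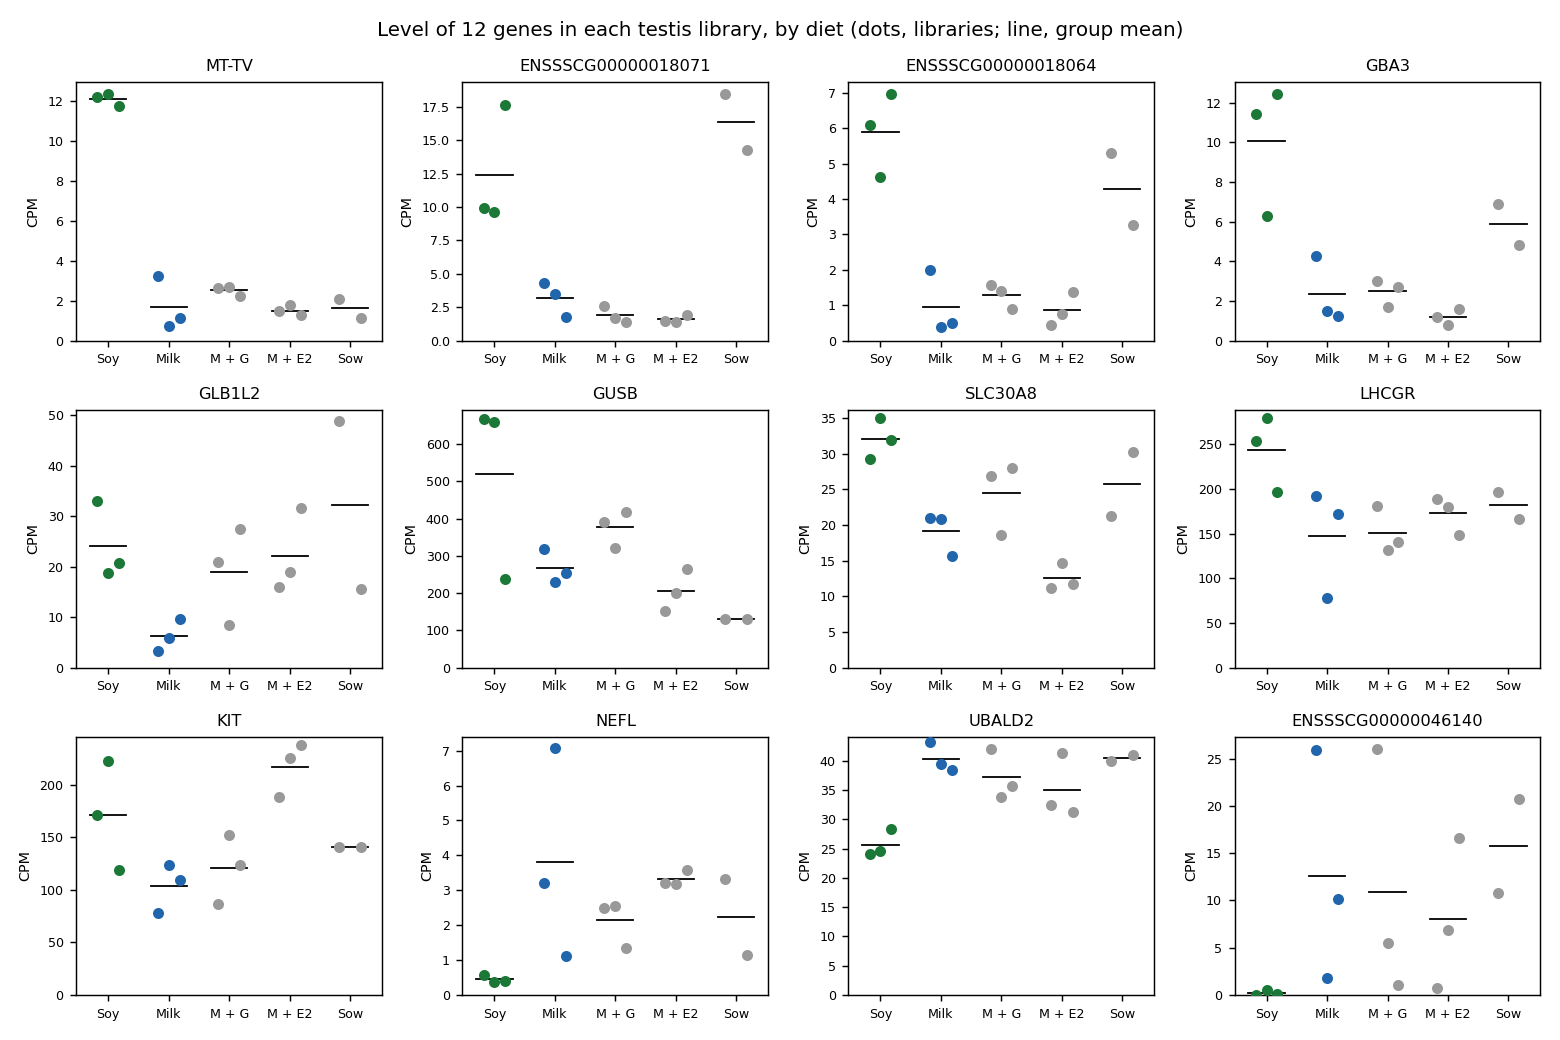
Level in CPM (y axis, linear from 0) of 12 genes in each library, by diet (x axis), with Soy in green, Milk in blue, the other diets in grey and the group mean as a line. MT-TV (ENSSSCG00000018062) is near 12 CPM in the 3 Soy libraries alone, while ENSSSCG00000018071, ENSSSCG00000018064 and GBA3 are also higher in Sow than in the milk formula diets.

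Among identifiers without a symbol, ENSSSCG00000032946 had the smallest p of those lower in Soy. It had 17.5, 15.7 and 20.1 CPM in Soy and 36.3, 48.0 and 25.7 CPM in Milk (−1.05 ± 0.21, adjusted p = 0.731; DESeq2 adjusted p = 0.0165). The Sow libraries, at 17.2 and 15.9 CPM, were again near Soy, and M + G and M + E2 lay at 35.3 to 54.9 CPM. ENSSSCG00000046140 had 0, 0.474 and 0.137 CPM in Soy and 25.96, 1.74 and 10.2 CPM in Milk (−5.84 ± 1.65, adjusted p = 0.999; edgeR exact test adjusted p = 0.00463). Its spread within diets was wide, from 1.01 to 26.1 CPM in M + G and from 0.727 to 16.7 CPM in M + E2.

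ENSSSCG00000036445 had 1.35, 0.593 and 2.73 CPM in Soy and 8.09, 22.9 and 9.77 CPM in Milk (−3.14 ± 0.92, adjusted p = 0.999; exact test adjusted p = 0.00463). It too varied within diets, at 0.524, 6.18 and 9.34 CPM in M + G and 0.291, 4.69 and 0.738 CPM in M + E2. Low levels were thus not limited to Soy, and Sow had 19.5 and 10.1 CPM. ENSSSCG00000051499 held 3 reads or fewer in each Soy library, and against a floor of 3 reads the Soy mean was at least 10.4-fold lower, with Milk at 8.09, 0.620 and 2.76 CPM. In bulk tissue, fewer cells of a type and less RNA per cell cannot be told apart, for these and for all genes below.

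No gene of the steroid pathway was called different. Of 17 tested genes, 11 were higher and 6 lower in Soy, 0 were called (0% of all genes were), 0 had an unadjusted p under 0.05, and 0 were without overlap. The median log2 fold change was 0.22, beside 0.01 over all genes. For 7 of the 17 genes (41.2%) the interval lay within 2-fold on either side, beside 68.8% of all genes. STAR, which carries cholesterol into mitochondria, had 4625, 3677 and 4777 CPM in Soy and 5484, 1783 and 3299 CPM in Milk (0.31, 95% interval −0.50 to 1.11). CYP11A1, the side-chain cleavage enzyme, differed by 0.13 (−0.56 to 0.83).

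CYP17A1, the 17-hydroxylase on the way to androgens, differed by 0.35 (−0.39 to 1.09) and CYP19A1, the aromatase that makes estrogen, by 0.31 (−0.38 to 1.01). In all 4 of these genes Milk 2 was the lowest of the 6 libraries, and the other 5 overlapped freely. M + E2 differed from the same Milk libraries by −1.48 for STAR (adjusted p = 0.186, quasi-likelihood) and −0.64 for CYP11A1. For CYP17A1 that difference was −0.16 and for CYP19A1 −0.83, and none of the 4 was called. Soy minus M + E2 was 1.78 for STAR (adjusted p = 0.0987, quasi-likelihood), 0.77 for CYP11A1, 0.51 for CYP17A1 and 1.14 for CYP19A1, none called. Without Soy 3 and Milk 2, a setting chosen after seeing the data, the list's median was −0.01, and without Milk 2 alone it was −0.069. SRD5A1, a 5-alpha-reductase, had 301, 278 and 189 CPM in Soy and 157, 65.1 and 220.3 CPM in Milk (0.79, −0.04 to 1.63).

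Estrogen receptors switch on target genes in many tissues, and 26 such genes and receptors were tested. Of these, 10 were higher and 16 lower in Soy, 0 had an unadjusted p under 0.05 by the quasi-likelihood test, 1 had no overlap (background 4.69%), and the median was −0.13. ESR1, the alpha receptor, differed by 0.29 (95% interval −0.21 to 0.79) and PGR, the progesterone receptor that estrogen induces in many tissues, by 0.02 (−0.82 to 0.86). GREB1, another target of the alpha receptor, differed by 0.23 (−0.63 to 1.09). For 12 of the 26 genes the interval lay within 2-fold on either side.

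HSPB8, a small heat shock protein, was the gene without overlap, at 117, 98.0 and 111 CPM in Soy and 92.5, 74.5 and 88.7 CPM in Milk (0.35). In M + E2 it lay between 38.0 and 60.8 CPM, and the difference between Soy and M + E2, 1.10, was called (adjusted p = 0.0431). FOXL2, a factor of the female gonad, held at most 3 reads in each of the 6 libraries and was below the filter.

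**Figure D3:**
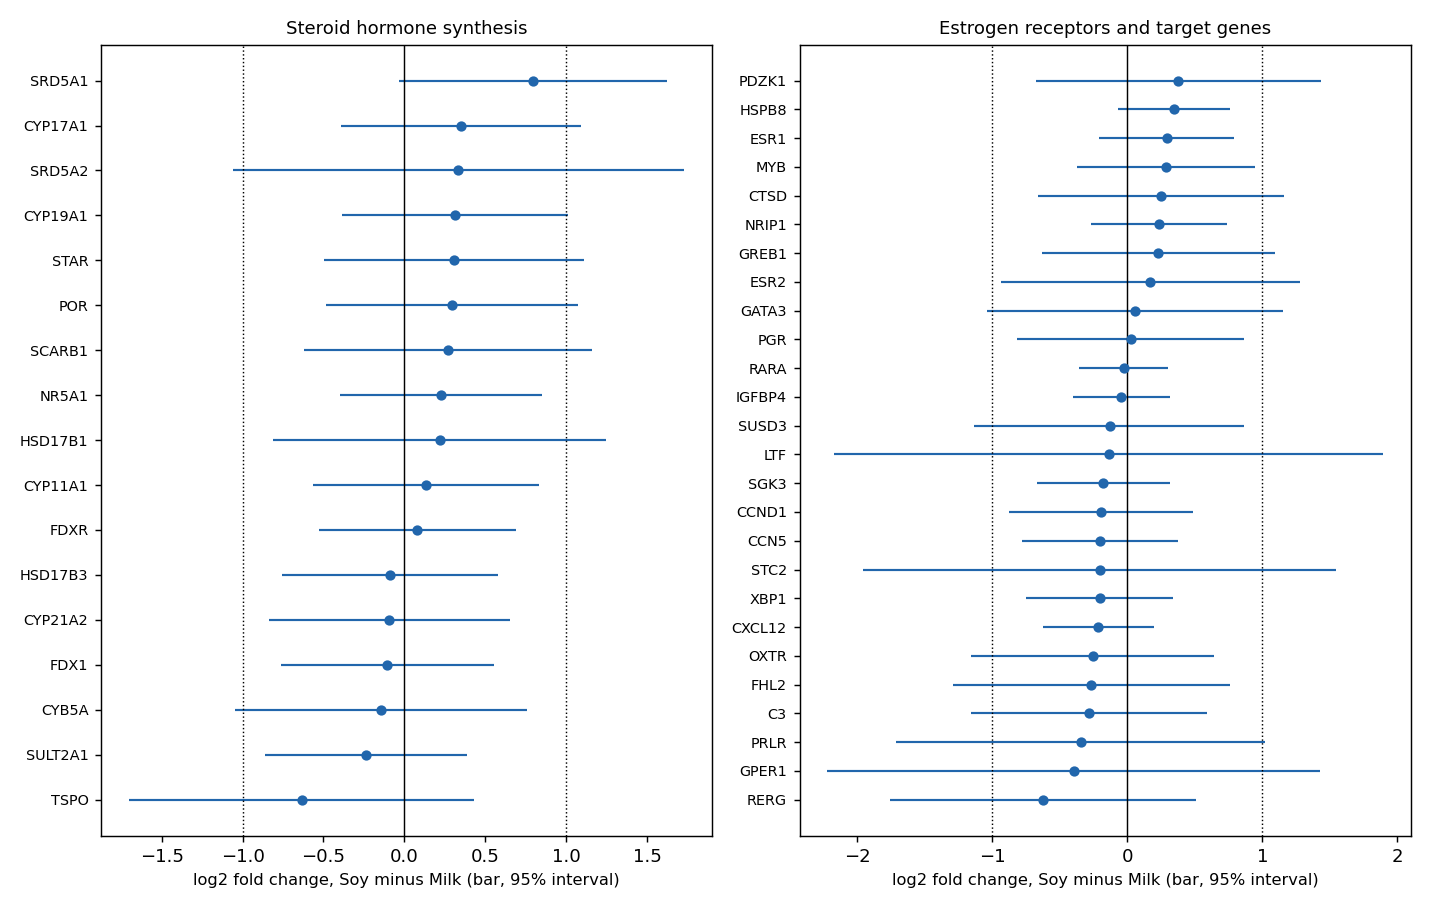
Log2 fold change between Soy and Milk (x axis, Soy minus Milk) with 95% intervals as bars for the 17 tested genes of steroid hormone synthesis (left) and the 26 estrogen receptors and estrogen-responsive genes (right). Dotted lines mark a 2-fold difference, and the interval of every gene includes 0.

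For the whole contrast, side by side and in the same quasi-likelihood fit, 381 genes had an unadjusted p under 0.05 in Soy against Milk, 406 in M + G against Milk and 2772 in M + E2 against Milk, and each of the 3 called 0 genes (0%). DESeq2's Wald test called 6, 2 and 122. These comparisons share the Milk libraries. Soy against M + E2 called 23 genes (0.147%), 19 of them higher in Soy, and DESeq2 called 143. Soy against M + G called 0 (0%), with 570 genes at an unadjusted p under 0.05, and DESeq2 called 12. Soy against Sow called 2 genes (0.0128%), both lower in Soy, with 2344 genes at an unadjusted p under 0.05, and DESeq2 called 33.

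Leydig and interstitial markers had 1 gene higher and 1 lower without overlap among 9 tested (background 2.53% higher and 2.17% lower). LHCGR (ENSSSCG00000008421, chromosome 3, 91964415 to 92023821), the luteinizing hormone receptor, had 254, 279 and 197 CPM in Soy and 192, 78.2 and 172 CPM in Milk (0.72 ± 0.28). TCF21, a factor of interstitial progenitors, had 21.7, 25.4 and 20.8 CPM against 30.8, 32.5 and 26.4 CPM (−0.40). Of 18 Sertoli cell markers, 13 were higher and 5 lower, none past an unadjusted p of 0.05, with a median of 0.09, and their summed level overlapped at 3976 to 5097 CPM in Soy and 3146 to 5263 CPM in Milk. The 14 genes of the FSH receptor, inhibin and activin had a median of −0.08, and FSHR itself differed by 0.26 (95% interval −0.43 to 0.95).

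Of 34 germ cell markers listed, 19 were tested: 13 were higher and 6 lower, and the median was 0.22. KIT, the stem cell factor receptor of differentiating germ cells and also of Leydig cells (chromosome 8, 41402334 to 41492306), had 172, 223 and 119 CPM in Soy and 78.2, 123 and 109 CPM in Milk (0.72 ± 0.25), with Soy unnumbered inside the Milk range. It was the only germ cell marker with an unadjusted p under 0.05 (background 1.36% higher). In M + E2, KIT had 189, 225 and 238 CPM. Against the same Milk libraries its log2 fold change there was 1.07, in the direction of Soy (adjusted p = 0.186, quasi-likelihood). GFRA1, a receptor of stem spermatogonia, differed by −0.26 and ELAVL2, an RNA-binding protein, by 0.53. The summed level of the list was 285 to 474 CPM in Soy and 227 to 356 CPM in Milk.

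The gonad fate factors, 9 genes of early gonad formation, had the lowest median beside the T and NK cell markers, −0.47, with 8 of 9 lower and all overlapping. LHX9, a homeobox factor of the gonadal ridge, had 31.2, 38.9 and 24.9 CPM in Soy and 38.9, 62.5 and 34.6 CPM in Milk (−0.52). Without Milk 2 the list's median was −0.13. EMX2 differed by −1.08 and RSPO1, a Wnt agonist, by −1.03, each overlapping.

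Smooth muscle and matrix genes were high in 1 library of each diet. The 13 genes of smooth muscle and peritubular cells summed to 7229 CPM in Soy 3 and 6030.4 CPM in Milk 2, against 1515 to 2474 CPM in the other 4 libraries. The 27 collagen and matrix genes summed to 57706 and 52555 CPM in the same libraries and 15950 to 25709 CPM in the rest. MYH11, smooth muscle myosin, had 1015 CPM in Soy 3 and 479 CPM in Milk 2, and no more than 95.6 CPM in the others. The medians of the lists were −0.05 and −0.09, and both depended on these libraries: without Soy 3 they were −1.48 and −0.86. SMAD6, an inhibitor of BMP signalling, followed the same split, at 42.2 CPM in Soy 3 and 30.9 CPM in Milk 2 against 9.16 to 16.8 CPM elsewhere (log2 fold change 0.23 ± 0.47).

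The 57 ribosomal protein genes split the libraries another way, and all 57 were lower in Soy. Their summed level was 32233, 27696 and 67663 CPM in Soy and 65723, 65747 and 27948 CPM in Milk. Soy unnumbered, Milk 1 and Milk 2 were high, and Soy 2, Soy 3 and Milk 3 low, so no gene was without overlap and none had an unadjusted p under 0.05. The median log2 fold change of −0.33 thus came with a spread of over 2-fold inside each diet. With Soy 3 and Milk 2 left out the median was 0.10. Whether this split reflects RNA quality or library preparation was not tested.

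Immune cell markers were mostly lower in Soy, and Milk 2 was the highest library for several. Of 14 T and NK cell markers 13 were lower, 2 with an unadjusted p under 0.05 (background 1.07%), and the median was −0.47. Their summed level was 35.5, 46.9 and 50.8 CPM in Soy and 49.0, 87.0 and 52.1 CPM in Milk, and without Milk 2 the median was −0.052. LCK, the kinase of the T cell receptor, differed by −0.99 and NKG7, a granule protein, by −0.63. Of 15 macrophage markers 11 were lower (median −0.27, and 0.011 without Milk 2), with TYROBP, a signalling adaptor, at −0.58 and CD163, a scavenger receptor, at 0.29.

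The 11 B cell and lymphoid genes had a median of −0.06. CD79A, of the B cell receptor, had 84.3, 72.7 and 173 CPM in Soy and 246, 248 and 112 CPM in Milk (−0.88), with overlap. Red cell genes had a median of −0.33 over 9 tested, with 4 higher and 5 lower. Endothelial genes had a median of −0.08, with 16 of 19 lower and 3 lower without overlap (background 2.17%), among them SOX17 at −0.60 and CLDN5 at −0.55. The junction genes of the blood-testis barrier had a median of 0.01, and rete and epididymal epithelium 0.52 over 10 genes. EPCAM was below 1 CPM in all 6 libraries, and DEFB115 held 0 reads in each of them, so that up to 3 reads per library remain possible.

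**Figure D4:**
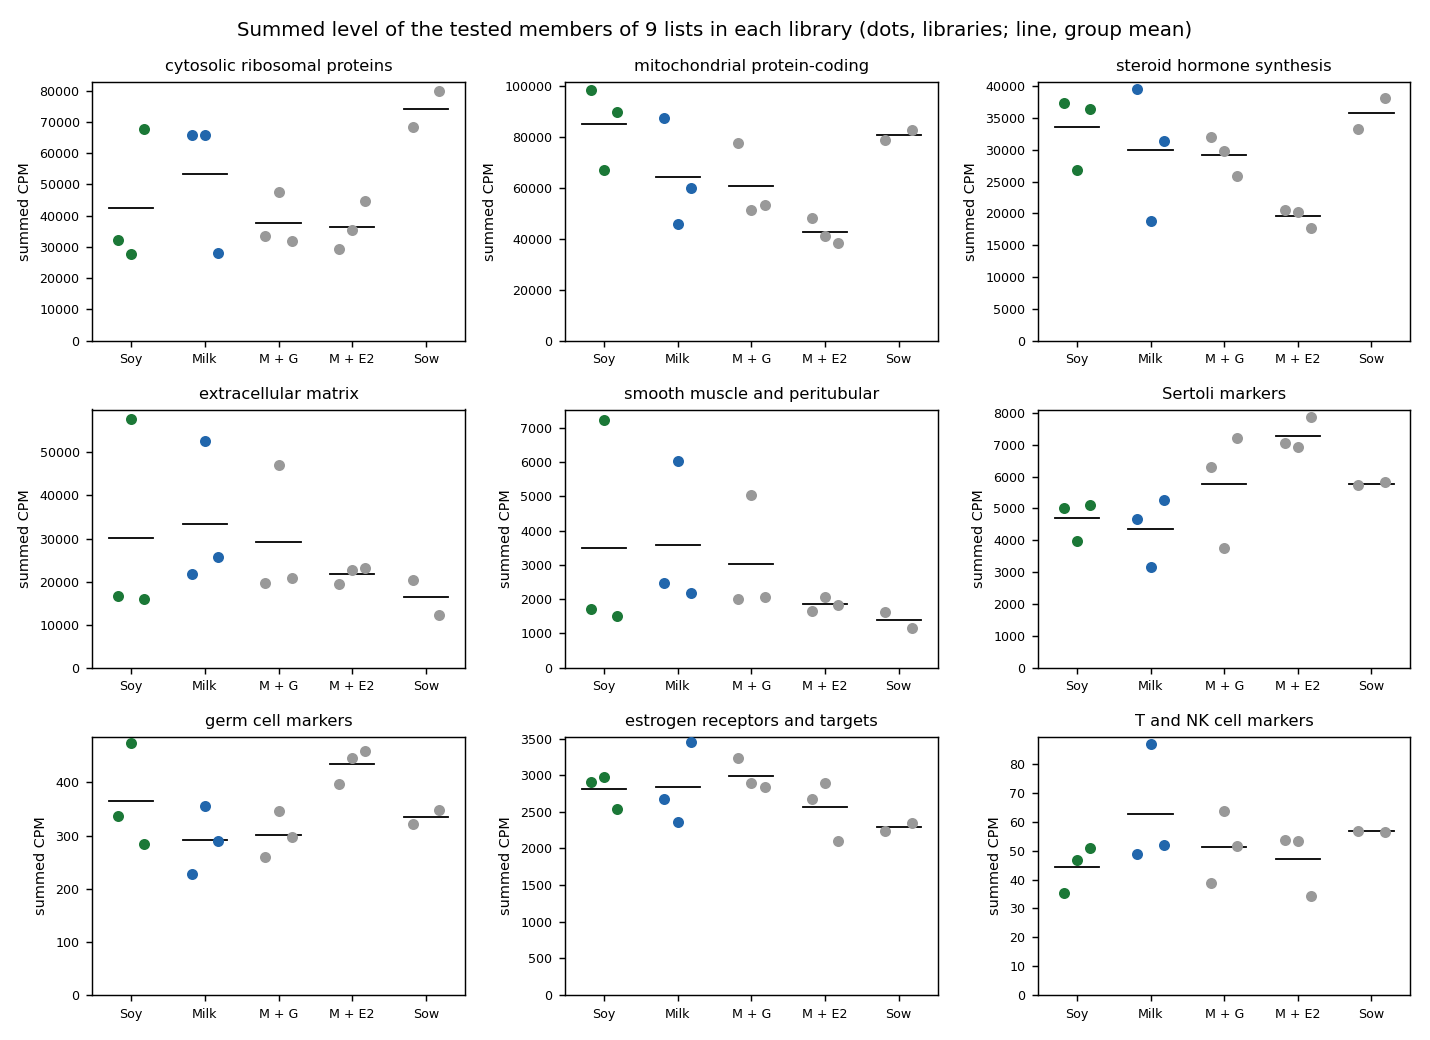
Summed CPM (y axis, linear from 0) of the tested members of 9 gene lists in each library, by diet (x axis), with Soy in green, Milk in blue, the other diets in grey and the mean as a line. Ribosomal protein genes split Soy and Milk alike into high and low libraries, and matrix and smooth muscle genes are high in Soy 3, Milk 2 and one M + G library.

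Xenobiotic and isoflavone metabolism, 24 tested genes of the aryl hydrocarbon receptor, conjugating enzymes and transporters, had a median of 0.03, with 13 higher and 11 lower. Beside GUSB, LPO, a peroxidase, had an unadjusted p under 0.05 (1.41, 95% interval 0.31 to 2.51), so 2 of the 24 did (background 1.36% higher). CYP1A1, the main target of the aryl hydrocarbon receptor, differed by −0.76 (−2.16 to 0.61). The NRF2 targets and antioxidant enzymes were higher in 16 of 21 (median 0.13), with GCLM of glutathione synthesis at 0.50 and GPX1 at −0.45, none past an unadjusted p of 0.05.

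No theme was seen in lipid and sterol genes. Of 23 genes of cholesterol synthesis and uptake, 14 were higher (median 0.11), but without Soy unnumbered the median was −0.17. Cholesterol efflux and storage had a median of 0.06. Fatty acid synthesis and desaturation had a median of 0.30 over 12 genes, and −0.019 without Milk 2, with ELOVL5, an elongase of polyunsaturated fatty acids, at 405, 291 and 357 CPM in Soy and 275, 208 and 274 CPM in Milk (0.48, no overlap). Fatty acid oxidation had a median of −0.04, with 13 of 22 lower.

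Among 20 glycolytic genes 2 had an unadjusted p under 0.05, both higher (background 1.36%, median 0.15). HK2, the inducible hexokinase, had 46.9, 35.5 and 17.4 CPM in Soy and 10.99, 7.69 and 19.3 CPM in Milk (1.39 ± 0.39), and Soy unnumbered lay below Milk 3. ALDOA, an aldolase, differed by 0.61. The 30 genes of the amino acid response and methionine metabolism had a median of 0.02, with NUPR1, a stress factor, lower at −0.68 and TRIB3 at 0.63.

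The growth factor and hormone lists turned with single libraries. The median was 0.01 for the insulin-like growth factor axis, −0.06 for BMP and TGF-beta signalling, 0.07 for desert hedgehog signalling, 0.06 for retinoic acid and 0.10 for thyroid hormone. Without Soy 3 these were −0.43, −0.27, −0.023, −0.12 and −0.26 in that order, while without Milk 2 thyroid hormone was at 0.42 and without Milk 3 desert hedgehog at 0.32. BMPR1B, a BMP receptor, differed by 0.99 ± 0.31 with Soy unnumbered inside the Milk range. M + E2 differed from the same Milk libraries by 0.94 for BMPR1B (adjusted p = 0.207, quasi-likelihood). Iron and zinc handling had a median of 0.17. SLC39A14, a zinc and iron importer, was 1 of 13 tested genes without overlap (0.22, background 2.53% higher).

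Cell cycle genes were lower in 22 of 25 (median −0.20), with KIF11, a spindle motor, at −0.56 and MCM2, of the replication helicase, at 0.10. Milk 2 was the highest library, and without it the median was −0.058. The immediate early and stress genes had a median of −0.05, and GADD45B, a stress-induced gene, had 18.1, 27.3 and 23.4 CPM in Soy and 47.5, 41.7 and 32.6 CPM in Milk (−0.82 ± 0.29, no overlap). Interferon-stimulated genes had a median of −0.09, with OAS1, a sensor of viral RNA, below 1 CPM in Soy and at 1.83, 6.82 and 1.00 CPM in Milk (−2.40 ± 0.94).

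**Figure D5:**
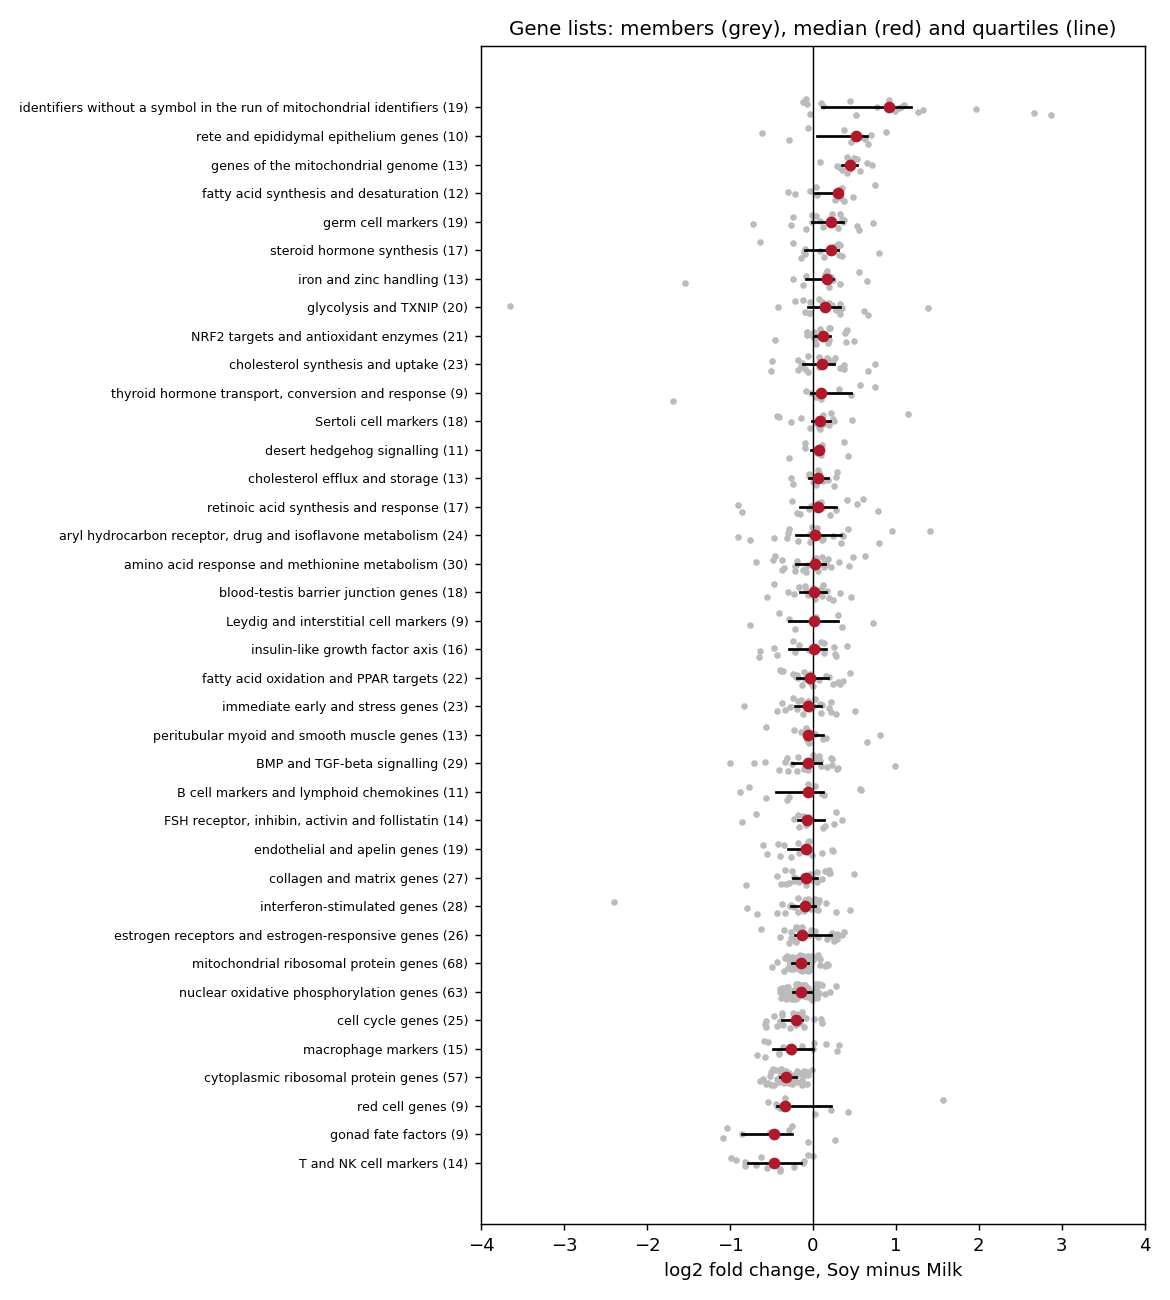
Log2 fold change between Soy and Milk (x axis, Soy minus Milk) of the members (grey), the median (red) and the quartiles (line) of 37 gene lists and of the mitochondrial identifiers without a symbol, with the number tested in brackets. Medians of the 37 lists run from −0.47 for T and NK cell markers to 0.52 for rete and epididymal epithelium, and the identifiers without a symbol lie above them at 0.92.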

How the data were processed

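Testis RNA of 5 diet groups was sequenced as 15 libraries in 36 bp single-end reads, of which 6 libraries, 3 Soy and 3 Milk, were compared. The paper fed 6 piglets on Soy and 6 on Milk, and does not state which piglets each library came from. The authors trimmed bases below Q25 and reads with more than 2 ambiguous bases, used the CLC Genomics Workbench for mapping, and the deposited values are unnormalized read counts per gene. Per the paper, reads went first to a curated gene library and the remainder to Ensembl pig genome build 11.1, and how the deposited counts combine both was not determined. Strand was not stated. A count covers counting error only, and 0 reads allow up to 3.

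In R 4.3.3, genes were filtered by edgeR 4.0.16 filterByExpr (minimum count 10), scaled by TMM and tested by its quasi-likelihood test in 1 fit of 14 libraries, since the authors left out Sow 2. A gene was called at an adjusted p of 0.05 or less and 2-fold. Alternatives were other library sets, each library left out, a replicate block, filters, DESeq2 1.42.0 (size factors and Wald test), edgeR's exact test, which the authors used, and adjusted p alone. Simulated data were used to test the fit. The numbered Soy and Milk libraries share 2 numbers, and no source pairs them.

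Named were called genes, the 8 smallest p in each direction among genes with a symbol and without overlap, genes the paper names, and the smallest p in each direction of every list. Those named beyond this rule (the identifiers without a symbol other than ENSSSCG00000018062 and ENSSSCG00000046140, and ALDOA, CYP1A1, ELAVL2, EMX2, ESR1, FSHR, GREB1, LCK, LPO, PGR, RSPO1, SLC39A14 and TRIB3) were chosen after their values were seen. Members, the 37 lists and the tests were chosen with earlier results of these data known. The number of count columns left unused was 0. Positions are from RefSeq, Sscrofa11.1, and 810 symbols came from a reference table. Genes of the rule outside the table are not analysed here, some others that it names are not reported here, and no sequences were used.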

Additional observations from a re-analysis of the deposited data

How the results depend on the processing

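The count of called genes, 0, was 0 in the fits of 6, 12 and 15 libraries, with the replicate block, with at least 10 counts, with DESeq2's size factors and at adjusted p alone. It was 1 (1 higher) without a filter, 6 (4 higher, 2 lower) by DESeq2's Wald test and 5 (3 higher, 2 lower) by the exact test, the same numbers at adjusted p alone, and 0 to 1 when each library was left out (higher, 0 to 1; adjusted p alone, 0 to 1), 1 without Milk 1. Genes at an unadjusted p under 0.05 numbered 141 in the 6 libraries, 628 without a filter, 153 by the exact test, and 194 (without Soy 2) to 2396 (without Milk 3) with a library left out. Genes without overlap numbered 1310 without a filter and 1109 to 3964 with a library left out. With the replicate block, which drops Soy unnumbered, these counts were 1026 and 2536, and no call changed. Deviations from the group means correlated at −0.57 for Soy 2 with Milk 2 and 0.25 for Soy 3 with Milk 3. For unlike numbers they correlated at 0.46 for Soy 2 with Milk 3 and 0.20 for Soy 3 with Milk 2. With 2 pairs these values cannot decide whether the numbers mark a pairing. With Soy 3 and Milk 2 both left out, an alternative added after seeing the data, 0 genes were called and 3098 did not overlap. The causes were not tested, though with 2 libraries in a group fewer values must lie apart.

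With 1 library left out, the median changed sign in at least 1 fit for 28 of the 37 lists, among them steroid synthesis (−0.069 to 0.28), Sertoli markers (−0.097 to 0.28) and insulin-like growth factors (−0.43 to 0.16), and it was −0.81 to −0.087 for ribosomal proteins. Medians that moved by more than 1 SD of the list's level between libraries were: for epithelium 0.14 in the 6 libraries, 0.14 by the exact test, −0.044 with the replicate block, 0.17 with at least 10 counts and 0.25 to 0.64 with a library left out; for B cell genes −0.27 with the block, −0.28 with at least 10 counts and −0.33 to 0.14; for glycolysis 0.34 with the block, 0.034 without Soy 3 and Milk 2 and 0.086 to 0.29; for the cell cycle −0.36, −0.010 and −0.36 to −0.058 likewise. Without Soy 3 and Milk 2 the macrophage median was −0.00029 and that of the amino acid response −0.080, and over all 15 libraries the median of all genes was −0.021. With a library left out the ranges were −1.48 to 0.42 for smooth muscle, −0.86 to 0.25 for matrix, 0.11 to 0.31 for germ cells, −0.088 to 0.24 for xenobiotic metabolism, −0.62 to −0.13 for gonad fate factors, −0.41 to 0.011 for macrophages, −0.73 to −0.052 for T and NK cells, −0.073 to 0.0088 for the amino acid response, −0.094 to 0.17 for inhibin and activin and −0.017 to 0.086 for the barrier. Depth limits genes under 1 CPM, where a library of this size holds fewer than 10 reads.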
